A study of Mus musculus with 40 samples.

Results

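The genes described here were 10 brakes on the cell cycle and partners of the tumour suppressor p53: Cdkn2a, Cdkn2b, Cdkn2c, Cdkn2d, Cdkn1a, Cdkn1b, Cdkn1c, Trp53, Mdm2 and Ccng1. They were chosen as markers of senescence, the lasting arrest of division that aged or damaged cells can enter. All 15 probes that the array assigns to these symbols were taken, out of 55589 probes for 36362 gene names. RNA of cerebral cortex and of cerebellum had been hybridised to 40 one-colour Agilent arrays, 4 mice in each of 10 groups. Wild type (WT) C57Bl/6 mice on a normal diet with 36 mg α-tocopherol per kg were 2 or 29 months old. The other mice were 29 months old: WT mice on a vitamin E deficient diet, and mice without Ttpa, the α-tocopherol transfer protein of the liver that keeps vitamin E in the circulation, on the deficient diet or on one supplemented with 600 mg α-tocopherol per kg. No Ttpa-/- group had the normal diet, and no supplemented WT group was among the samples, so that genotype and diet changed together in several comparisons.

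The Ink4 proteins (p15, p16, p18 and the p19 made by Cdkn2d) block the kinases Cdk4 and Cdk6, which start the division cycle by phosphorylating the retinoblastoma protein. The Cip/Kip proteins p21 (Cdkn1a), p27 (Cdkn1b) and p57 (Cdkn1c) bind cyclin-kinase complexes more broadly. Cdkn2a also makes p19Arf from its own first exon and another reading frame; Arf holds back Mdm2, the ligase that marks p53 for destruction. Cdkn1a, Mdm2 and Ccng1 are in turn transcribed by p53. In the brain, most neurons have left the cell cycle for good, and a rise of p16 is a widely used mark of senescent cells.

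A level is given as the log2 of the probe's processed signal minus the log2 of the 75th percentile of all probes on that array, so that 0 is the 75th percentile and each unit is a doubling. Levels were compared between groups and never between probes. Of the 15 probes, 10 were well above background on all 40 arrays. Probe 1 of Cdkn2a was so on 32 arrays, probe 1 of Cdkn2b on 4, probe 2 of Cdkn1a on 2, and probe 2 of Cdkn2a and probe 3 of Cdkn1a on 0. Therefore 11 probes, at least 1 for each gene, entered the tests of 13 of the 14 comparisons between groups, and 10 entered the comparison of the regions at 2 months. A change was called where the limma test, adjusted over all probes tested by the Benjamini-Hochberg method, gave p under 0.05 and the fold was over 1.5. As these are whole tissues, fewer cells of a type and less RNA per cell cannot be told apart.

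The arrays had been hybridised on 5 slides of 8, with both groups of a slide sharing a scan time. For 3 of the 14 comparisons both groups shared a slide: aging in cortex, the deficient diet in WT cerebellum, and the deficient against the supplemented diet in Ttpa-/- cerebellum. For the others, slide and condition cannot be told apart. The 75th percentile was 365 to 925 intensity units, 51.4 to 61.4% of gene spots were well above background, and arrays of a group correlated at 0.973 to 0.993. The region labels held against marker genes: Cbln3 and Gabra6 of cerebellar granule cells were above background on 0 of the 20 cortex arrays, and Emx1 of cortical neurons on 0 of the 20 cerebellum arrays. One Ttpa probe was above background on all 12 arrays of WT cerebellum and on 1 of 8 of Ttpa-/- cerebellum. In cortex it was above background on 1 of 20 arrays, so it does not check the genotype there. The other Ttpa probe was above background only on 1 array, of Ttpa-/- deficient cerebellum, and checks the genotype in neither region.

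The sequences below are those on which the Cdkn2a, Cdkn1a and Trp53 results rest. Both Cdkn2a probes are listed for the transcripts of p16Ink4a and of p19Arf, so the arrays cannot tell the 2 products apart. Their first 30 bases are shown because one of them gave signal in aged brain and the other, 138 bases away on the same strand, gave none. On mm9 the first lies at chr4:88920435-88920464 and the second at chr4:88920573-88920602, both on the minus strand. The whole Trp53 probe, at chr11:69404204-69404263 on the plus strand, is shown because every Trp53 value comes from it. No gene annotation of mm9 was used here, so exons are not assigned.
Cdkn2a probe 1, first 30 bases: ggcatgagaaactgagcgaaggcggccgcg
Cdkn2a probe 2, first 30 bases: cttctagcgatgctagcgtgtctagcatgt
Trp53 probe: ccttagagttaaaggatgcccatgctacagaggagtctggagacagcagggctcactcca

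The separate starts of the 2 Cdkn2a products are seen in their promoters, taken from RefSeq on GRCm38.p6 as the 250 bases before each start. The upstream one, of p19Arf, at chr4:89294620-89294869 on the minus strand, is 78.4% G or C and holds 2 GC boxes (GGGCGG, searched on both strands, in capitals). The p16Ink4a one, 12427 bases downstream at chr4:89282193-89282442 on the same strand, is 60.0% G or C and holds 0. Of 32851 RefSeq promoters of this length, 32.7% hold a GC box. The upstream of the 2 Cdkn1a promoters listed, at chr17:29090729-29090978 on the plus strand, holds 2 matches to the p53 half-site, in capitals, near enough to count as 1 full site, and the other holds 0. A half-site was found in 7.13% and a full site in 0.0639% of promoters. Among the 12 promoters listed for 9 of the genes, 5 held a half-site (1 each of Cdkn1a, Cdkn2d, Ccng1, Mdm2 and Trp53) and the upstream Cdkn1a one alone a full site. A match is a description of letters and not a site of binding.
Cdkn2a promoter of p19Arf: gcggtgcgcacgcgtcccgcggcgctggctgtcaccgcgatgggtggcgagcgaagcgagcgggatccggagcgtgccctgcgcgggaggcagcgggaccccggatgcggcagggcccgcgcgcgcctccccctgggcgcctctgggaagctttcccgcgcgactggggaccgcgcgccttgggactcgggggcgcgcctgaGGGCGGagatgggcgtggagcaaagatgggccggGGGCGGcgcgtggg
Cdkn2a promoter of p16Ink4a: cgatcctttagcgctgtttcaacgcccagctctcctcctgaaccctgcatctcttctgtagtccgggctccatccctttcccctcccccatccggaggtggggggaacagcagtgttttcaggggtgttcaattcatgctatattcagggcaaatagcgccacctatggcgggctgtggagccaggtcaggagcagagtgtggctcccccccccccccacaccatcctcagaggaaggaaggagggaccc
Cdkn1a upstream promoter: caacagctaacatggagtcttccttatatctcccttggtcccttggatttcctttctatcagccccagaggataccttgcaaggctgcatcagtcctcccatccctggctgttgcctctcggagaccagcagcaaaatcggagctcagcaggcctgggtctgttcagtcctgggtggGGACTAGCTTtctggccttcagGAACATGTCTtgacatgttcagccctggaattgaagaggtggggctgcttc

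The first question was which of these genes moved with age in WT mice. Cdkn2a rose in both regions, and it was the 1 probe called among 11 in cortex, where 2.10% of all probes tested were called in either direction, and the 1 among 11 in cerebellum, where 5.03% were. By groups that did not overlap, 4 of the 11 stood apart in cortex beside 14.0% of all probes, and 3 of 11 in cerebellum beside 19.1%. In cortex at 2 months, Cdkn2a probe 1 lay at -6.42, -5.89, -4.89 and -4.73 in the 4 mice, on no array above background. At 29 months it lay at -3.58, -2.77, -3.21 and -3.65, above background in each mouse. In raw terms these were processed signals of 5.52 to 17.5 units against 38.6 to 74.6, so that the aged signal was itself dim. The groups did not overlap. Cdkn2a entered the aging tests only through the aged groups, where it passed background, so the count of 1 carries that choice.

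The measured difference in cortex was 2.18 on the log2 scale (SE 0.34, adjusted p = 8.11e-05, limma). Since the young level is only a bound, Cdkn2a was at least 2.18-fold higher with age, reckoned against the lowest signal called above background on each young array or the probe's own where that was higher. In cerebellum the young mice lay at -5.18, -6.90, -6.41 and -7.09 and the aged ones at -3.59, -3.58, -3.57 and -3.07, again without overlap and with 0 of 4 young and 4 of 4 aged arrays above background. The difference was 2.94 (SE 0.34, adjusted p = 1.14e-07), or at least 2.51-fold. Since the young levels of both regions are only bounds, the rises cannot be compared between the regions. Under another background correction, which adds a constant to dim signals, the cerebellar difference was 0.78 and remained called (adjusted p = 6.6e-05). The cortex call did not hold when only the 2 groups were fitted (2.18, adjusted p = 0.0512), under that background correction (0.37, adjusted p = 0.129), or by the methods' t-test after adjustment.

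Among the aged groups the Cdkn2a means lay within 0.53 of each other. In order of their means, they were WT deficient cortex at -3.15 ± 0.34 (SD, n = 4), WT cortex at -3.30 ± 0.40, Ttpa-/- supplemented cortex at -3.39 ± 0.40, WT cerebellum at -3.45 ± 0.25, Ttpa-/- supplemented cerebellum at -3.46 ± 0.19, WT deficient cerebellum at -3.51 ± 0.43, Ttpa-/- deficient cerebellum at -3.64 ± 0.52 and Ttpa-/- deficient cortex at -3.68 ± 0.15. Neighbours in this order differed by less than their SDs. The young groups followed at -5.48 ± 0.81 in cortex and -6.40 ± 0.86 in cerebellum. The lowest of the 32 aged arrays, at -4.39, was above the highest of the 8 young ones, at -4.73. None of the 10 comparisons of genotype or diet called Cdkn2a, with differences from -0.53 to 0.15.

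**Figure D1:**
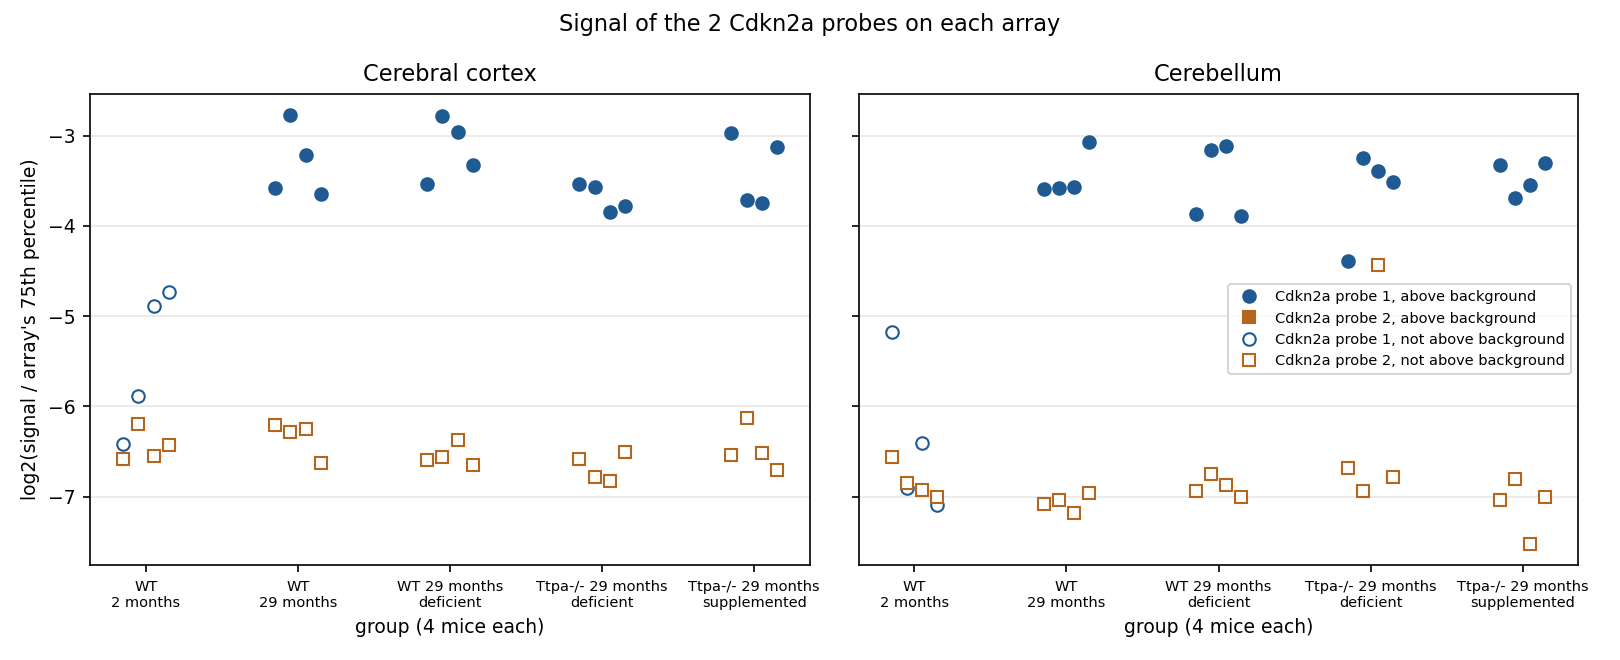
Signal of both Cdkn2a probes on every array, as log2 of the signal over the array's 75th percentile, in cortex (left) and cerebellum (right); each point is 1 mouse and filled points are well above background. Probe 1 is filled on all 32 arrays of 29-month mice and open on the 8 of 2-month mice, while probe 2 is open everywhere, with its highest point at -4.43.

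Over the 40 arrays, with each region's mean subtracted, the genes most like Cdkn2a probe 1 among 17109 were Cyba, a subunit of the phagocyte NADPH oxidase (r = 0.902), Capg, an actin-capping protein of macrophages (r = 0.896), and Gpnmb, a glycoprotein of macrophages (r = 0.895). These points share the step with age, 8 arrays being of young and 32 of aged mice. Cyba went from 1.42 ± 0.14 to 2.27 ± 0.22 with age in WT cortex and from 1.12 ± 0.09 to 2.57 ± 0.13 in cerebellum. Of the markers of microglia, the resident macrophages, 1 of 6 was called with age in cortex (C1qa, 0.87; 2.10% of all probes were called), and the list's summed level overlapped, at 126 to 148 in young and 115 to 155 in aged mice. In cerebellum 4 of 6 were called, beside 5.03% of all probes (C1qa 2.25, Aif1 1.79, Cx3cr1 0.84, Csf1r 0.79), with sums of 82.8 to 89.3 against 92.9 to 108. Of 6 astrocyte markers, Gfap alone was called in each region, by 1.51 and 1.87. The summed level of 4 blood genes was 0.509 to 2.03 in young and 4.74 to 11.1 in aged cortex, and 3.21 to 7.66 against 12.1 to 84.7 in cerebellum. Their part in the Cdkn2a result was not tested.

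Cdkn2b, the neighbour of Cdkn2a on chromosome 4, was not called with age. Its probe 2 averaged -2.56 ± 0.21 and -2.26 ± 0.02 in young and aged cortex and -2.97 in both ages of cerebellum, with SDs of 0.14 and 0.27. The aging differences were 0.30 and 0.01. Among the cortex groups, Cdkn2b had its lowest mean in Ttpa-/- deficient mice, at -2.67, -2.77, -2.76 and -3.10, against -2.29, -2.24, -2.25 and -2.24 in WT of the same age. The groups did not overlap, and the difference of -0.57 (SE 0.19, 1.48-fold, adjusted p = 0.0357, limma) fell just short of the 1.5-fold line. In the 8 limma fits without 1 array it was -0.62 to -0.47, with an adjusted p of 0.0551 to 0.0908. WT mice on the deficient diet, at -2.90, -2.60, -2.77 and -2.65, also lay wholly below the WT mice on the normal diet, by 0.47, which was not called. Its probe 1 was above background on 4 arrays only, the highest at -2.79 in the cerebellum of 1 WT deficient mouse.

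Cdkn2c, which encodes p18Ink4c, was set apart by the cerebellum. There it lay at -2.0, -2.18, -2.02 and -2.43 in the young mice and at -1.63, -1.70, -1.75 and -1.30 in the aged ones, which did not overlap. The difference of 0.56 (1.48-fold, adjusted p = 0.0161, limma) was under the fold line. By adjusted p alone, 3 of 11 probes passed in aging cerebellum, beside 11.0% of all probes. In cortex the values were -2.20, -2.65, -2.64 and -2.15 against -2.82, -2.23, -2.81 and -2.65. The difference between the regions' aging changes, cortex minus cerebellum, was -0.77 (SE 0.22, adjusted p = 0.0653).

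The other aged cerebellum groups had higher means than WT on the normal diet. Young WT cerebellum was on slide 3, both aged WT groups on slide 4 and both Ttpa-/- groups on slide 5. The aging difference of Cdkn2c and its differences of Ttpa-/- from WT mice therefore cannot be told apart from slide. WT deficient mice were at -1.30, -1.58, -1.52 and -1.47, Ttpa-/- deficient mice at -1.18, -0.98, -1.22 and -1.38, and Ttpa-/- supplemented mice at -1.06, -0.62, -0.80 and -1.23. The supplemented Ttpa-/- mice all exceeded the WT mice on the normal diet, and the rise of 0.67 (SE 0.16, 1.59-fold, adjusted p = 0.00424) was called. It was the 1 call among 11 probes in that comparison, where 4.91% of all probes were called, and 2 of 11 had groups that did not overlap, beside 21.3%. For Ttpa-/- deficient mice the difference from WT was 0.41 (adjusted p = 0.0799), and supplemented and deficient Ttpa-/- mice differed by -0.26 (deficient minus supplemented) without a call. On the deficient diet Ttpa-/- and WT mice, which differ by genotype and by slide, differed by 0.28 (adjusted p = 0.236). The call did not hold under median scaling or the other background correction, with array weights, with only the compared groups, by the methods' t-test after adjustment, or without replicate 2 of the supplemented group (0.57).

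The genes most like Cdkn2c were Th, tyrosine hydroxylase (r = 0.801 over 40 arrays, 0.163 within cortex and 0.916 within cerebellum), Rps21, a ribosomal protein (r = 0.788), and Arhgef17 (r = 0.782). Cerebellar Th stood at 1.33 ± 0.19 in young WT, 2.26 ± 0.31 in aged WT, 2.59 ± 0.16 in WT deficient, 2.92 ± 0.30 in Ttpa-/- deficient and 2.79 ± 0.33 in Ttpa-/- supplemented mice. Cdkn2d, the last of the Ink4 genes, was steady. Its group means ran from 3.97 to 4.14 in cortex and from 3.58 to 3.69 in cerebellum, and its differences within a region were at most 0.17 in size.

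The second question was whether loss of Ttpa, with or without dietary vitamin E, moved these genes in aged mice. Trp53 rose in the cortex of Ttpa-/- mice on the deficient diet, and this change differed from that in their cerebellum. In cortex of Ttpa-/- deficient mice it lay at -1.95, -2.01, -1.81 and -2.32, all above the WT mice on the normal diet at -3.20, -2.89, -3.03 and -2.74. Trp53 was 1.92-fold higher (log2 0.94, SE 0.17, adjusted p = 0.000336, limma). It was the 1 call among 11 probes, beside 4.76% of all probes in that comparison. Under the other background correction Trp53 kept its adjusted p (0.000256), but the difference of 0.52 was under the fold line. By adjusted p alone 2 of 11 passed, beside 18.9%, and by groups that did not overlap 4 of 11, beside 23.4%.

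Trp53 in cortex was also higher on the deficient than on the supplemented diet in Ttpa-/- mice, the latter being at -2.73, -2.90, -2.46 and -2.68 without overlap. This 1.59-fold rise (log2 0.67, adjusted p = 0.00763) was again the 1 call of 11, beside 3.31% of all probes, and 3 of 11 had groups that did not overlap, beside 19.0%. With only those 2 groups fitted its adjusted p was 0.0646, by the methods' t-test, adjusted over all probes, 0.0612, and with the other background correction the difference was 0.42. WT deficient mice lay between, at -2.62, -2.36, -2.67 and -2.28. They did not overlap with WT mice on the normal diet, but the difference of 0.48 was not called (1.40-fold, adjusted p = 0.155). Ttpa-/- deficient mice exceeded them by 0.46 (adjusted p = 0.0639), and Ttpa-/- supplemented mice exceeded WT on the normal diet by 0.27 (adjusted p = 0.754). Among the other cortex comparisons of genotype or diet, 0 of 11 probes were called for the deficient diet in WT, for Ttpa loss with the supplemented diet and for Ttpa loss on the deficient diet, where 0.223%, 0.0920% and 3.06% of all probes were. At an unadjusted p under 0.05 there were 3, 0 and 2 by limma and 3, 1 and 3 by the methods' t-test. No share of all probes was taken at that threshold, here or below, so nothing is read from such counts. In the same order, 3, 1 and 1 of 11 had groups that did not overlap, beside 10%, 6.85% and 17.2% of all probes.

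In cerebellum the same probe was at -2.89, -3.07, -3.39 and -4.11 in Ttpa-/- deficient mice, against -2.83, -2.67, -2.74 and -3.06 in WT mice on the normal diet. These groups overlapped. The difference of -0.54 (adjusted p = 0.0293) was 1.46-fold and so not called. It rested on the mouse at -4.11, without which it was -0.29 (adjusted p = 0.192). The Trp53 probe has 2 spots on each array, whose SD was 0.009 to 0.362 with a median of 0.112; on that array the spots read -4.39 and -3.88. The change in cortex minus that in cerebellum was 1.48 (SE 0.24, adjusted p = 0.000793), the 1 call of 11 in that test of a difference, beside 3.37% of all probes; 2 passed by adjusted p alone, beside 7.04%. Cortex and cerebellum of these mice were on different slides.

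By group means in cortex, Trp53 ran from Ttpa-/- deficient at -2.02 ± 0.21 to WT deficient at -2.48 ± 0.19, Ttpa-/- supplemented at -2.69 ± 0.18, aged WT at -2.96 ± 0.20 and young WT at -2.97 ± 0.14. Of the neighbours in this order, no pair compared by a test was called, and WT deficient and Ttpa-/- supplemented mice overlapped. Both cortex groups of WT mice on the normal diet were on slide 1. WT deficient and Ttpa-/- supplemented cortex were on slide 2 and Ttpa-/- deficient cortex on slide 3. Slide therefore cannot be told apart from genotype and diet in this order or in either cortex call of Trp53. In cerebellum the means were -2.82 ± 0.17 in aged WT, -2.85 ± 0.14 in WT deficient, -3.03 ± 0.16 in young WT, -3.11 ± 0.16 in Ttpa-/- supplemented and -3.36 ± 0.54 in Ttpa-/- deficient mice, and no step between neighbours exceeded 0.26. Age did not move Trp53 to a call in either region, with 0.01 in cortex (adjusted p = 0.992) and 0.21 in cerebellum (adjusted p = 0.525).

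**Figure D2:**
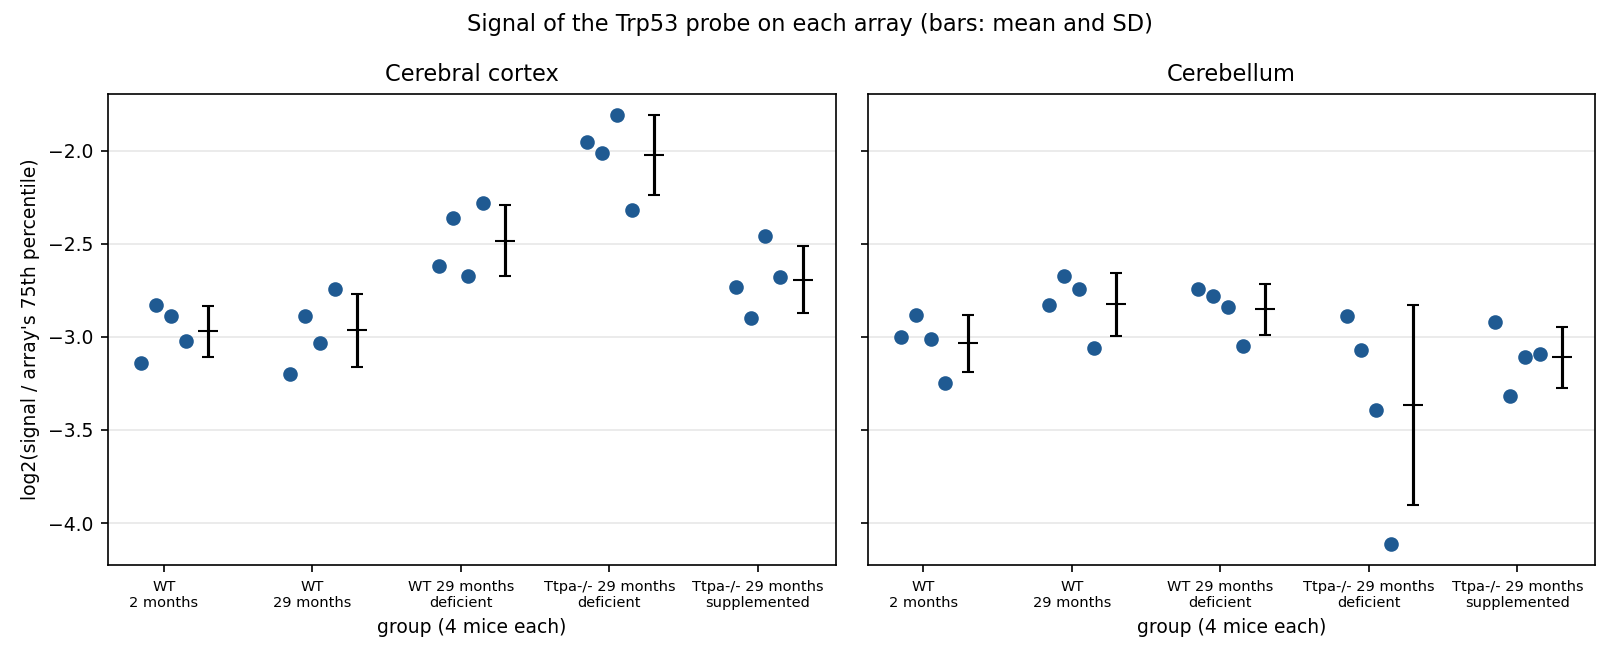
Signal of the Trp53 probe on every array, as log2 of the signal over the array's 75th percentile, in cortex (left) and cerebellum (right); points are mice and bars are the mean and SD of 4. The Ttpa-/- deficient mice are the highest group in cortex, at -2.32 to -1.81, and in cerebellum they spread from -4.11 to -2.89.

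Genes most like Trp53 over the 40 arrays were Ppp2r1a, the scaffold subunit of protein phosphatase 2A (r = 0.841), Prr12 (r = 0.835) and Ywhaz, a 14-3-3 protein (r = 0.834). Ppp2r1a too was highest in Ttpa-/- deficient cortex, at 4.13 ± 0.20 against 3.44 ± 0.10 in WT. Cell type markers beside this result were as follows. In Ttpa-/- deficient cortex 1 of 6 neuronal markers was called (Slc17a7, 0.71), beside 4.76% of all probes. The neuronal markers' summed level was 339 to 363 against 369 to 400 in WT. The oligodendrocyte markers summed to 144 to 179 against 163 to 282. Astrocyte markers summed to 55.3 to 64.2 against 64.8 to 76.8, and microglial markers had a median difference of -0.27. Choroid plexus genes summed to 12.8 to 181 against 5.04 to 151, and vessel markers to 25.6 to 30.3 against 26.1 to 29.2. Blood genes summed to 4.57 to 165 against 4.74 to 11.1. None of these other lists had a call, but all 3 blood genes tested had an unadjusted p under 0.05 by limma and 0 by the methods' t-test (median difference 1.76), as had 4 of 6 genes of microglia and 4 of 6 of vessels by both. In the difference between the regions, 4 of 4 blood genes had an unadjusted p under 0.05 by limma (median 2.58), and 0 were called. Their part in the Trp53 result was not tested.

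In the main fit Mdm2, Ccng1 and Cdkn1a were not called in either cortex comparison where Trp53 was. Between the Ttpa-/- diets Mdm2 differed by -0.08 and Ccng1 by -0.17. Cdkn1a differed there by 0.83, which was called with array weights and by the methods' t-test after adjustment. In Ttpa-/- deficient against WT cortex, Mdm2 was at 3.24, 3.24, 3.13 and 3.38 against 3.38, 3.49, 3.37 and 3.39. Ccng1, whose cyclin G1 recruits a phosphatase to Mdm2, was at 1.94, 1.80, 1.74 and 1.91 against 1.92, 2.14, 1.98 and 1.95. The differences were -0.16 and -0.15. Across all 12 comparisons within a region, Mdm2 differed by -0.16 to 0.15 and Ccng1 by -0.20 to 0.17, and neither was called in any. Of 24 other p53 targets chosen as a list, 21 could be tested. None was called in Ttpa-/- deficient against WT cortex, beside 4.76% of all probes. Their median difference there was -0.13 beside -0.02 for all probes. In that comparison 5 had an unadjusted p under 0.05 by limma and 4 by the methods' t-test. Between the Ttpa-/- diets in cortex 0 of 21 were called, beside 3.31%. With age 0 of 21 were called in cortex, beside 2.10% of all probes (8 at an unadjusted p under 0.05 by limma, 6 by the methods' t-test). In aged cerebellum 4 of 21 were called, beside 5.03% of all probes. Fas, a death receptor (1.22), Pmaip1, the BH3 protein Noxa (1.19), and Plk3 (0.91) were higher and Pidd1 lower (-0.63). The list also had 2 calls of 21 in Ttpa-/- supplemented against WT cerebellum, beside 4.91%. For the deficient diet in WT cerebellum it had 1 of 21, beside 1.27%. Among 12 tested regulators and relatives of p53, Trp73 rose in Ttpa-/- deficient mice against WT by 0.61 in cortex and 0.65 in cerebellum. It was the 1 call of the list in each, beside 4.76% and 4.46% of all probes.

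Cdkn1a, the gene of p21 and the best known p53 target, was marked by the spread between mice. On the deficient diet WT mice lay at 1.88, 1.06, 0.57 and -0.37 in cortex and at 1.94, 1.14, 0.79 and -0.50 in cerebellum for replicates 1 to 4. Those SDs, 0.94 and 1.01, were the largest of any group for this probe, and the order was the same in both regions. The labels do not say that equal numbers mark the same mouse. On the normal diet WT mice were at -0.16, 0.14, 0.04 and 0.14 in cortex and -0.33, -0.03, -0.30 and 0.89 in cerebellum. The mean differences of 0.75 and 0.79 (SE 0.38 each, adjusted p = 0.341 and 0.23) were not called. Without replicate 4 of the deficient group, the cerebellar difference was 1.23 (adjusted p = 0.034) and the cortical one 1.13 (adjusted p = 0.0787). These were the largest of the 8 limma fits without 1 array in each region. The smallest differences were 0.42 in cerebellum and 0.38 in cortex, and the adjusted p reached 0.649 and 0.862. The probe's spots, 8 to 10 on each array, had an SD of 0.043 to 0.116 within an array.

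In cortex the Ttpa-/- groups were tight and apart. Deficient mice were at 0.40, 0.56, 0.58 and 0.34 and supplemented ones at -0.27, -0.20, -0.49 and -0.49. The 1.78-fold difference (0.83, SE 0.38) had an adjusted p of 0.142 and was not called. With only these groups fitted the adjusted p was 0.0626, with array weights 0.0314 (a difference of 0.89) and by the methods' t-test, adjusted over all probes, 0.0419. The deficient mice also lay wholly above WT on the normal diet, by 0.43 (adjusted p = 0.465). With age the differences were 0.40 in cortex and -0.18 in cerebellum, neither of them called. The other Cdkn1a probes gave no usable level, probe 2 passing background on 2 arrays and probe 3 on none.

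**Figure D3:**
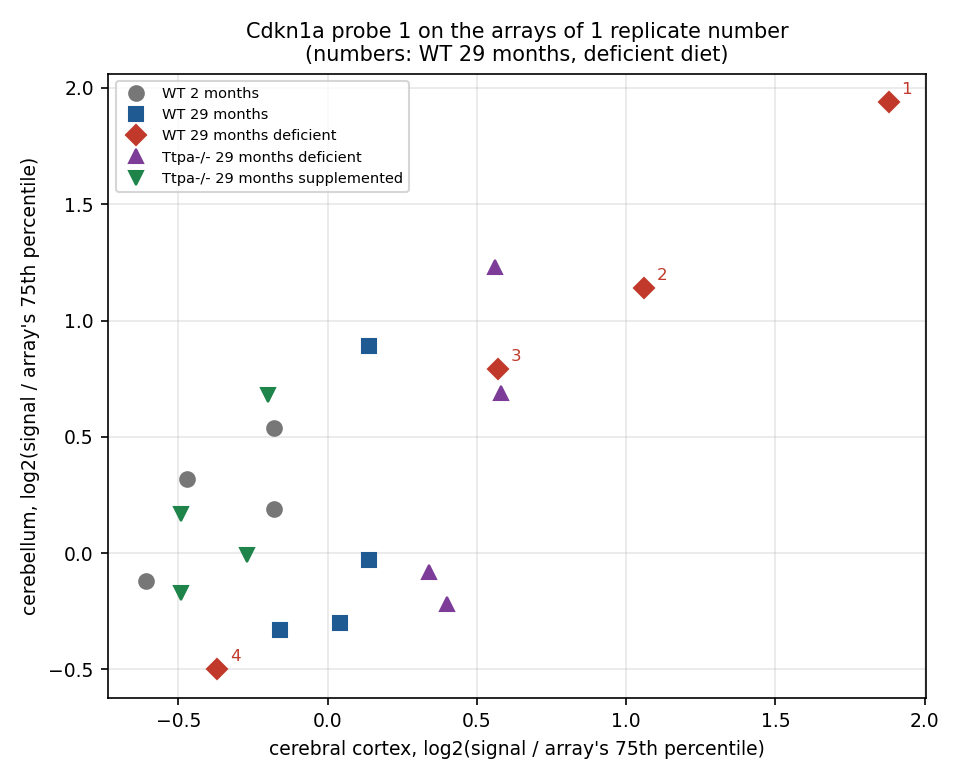
Cdkn1a probe 1 in cerebellum (vertical) against cortex (horizontal) for arrays of equal group and replicate number, both as log2 of the signal over the array's 75th percentile; symbols are the 5 conditions and the numbers mark replicates of the WT deficient group. Those 4 points run from -0.37 and -0.50 to 1.88 and 1.94, and no other group spans as far on either axis.

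Cdkn1b and Cdkn1c, the genes of p27 and p57, changed little with condition and were not called in any comparison within a region. Both Cdkn1b probes differed by at most 0.28 in size. For probe 2, the change of Ttpa-/- deficient mice in cortex minus that in cerebellum was -0.37 (SE 0.11, adjusted p = 0.0359), from 2.44 to 2.29 in cortex and from 4.20 to 4.42 in cerebellum, below the fold line. Cdkn1c in aged cerebellum was at -0.22, -0.16, -0.31 and 0.01 against 0.83, 0.01, 0.04 and 0.22 in young mice, a difference of -0.44 (1.36-fold, adjusted p = 0.0466). Without the young mouse at 0.83 it was -0.26 (adjusted p = 0.289). That array also had the highest sum of choroid plexus genes in these groups, 254. The other young mice had 33.5, 12.2 and 8.98 and the aged ones 6.27 to 7.23. With age 3 of the 8 genes tested were called (Ttr -7.70, Kcne2 -5.73, Kl -2.30), beside 5.03% of all probes. In Ttpa-/- deficient cortex the mouse with the lowest Cdkn1c, 0.80 against 1.33 to 1.39, had the lowest choroid plexus sum, 12.8 against 172 to 181. In WT cortex on the normal diet 1 young mouse had a sum of 3.06, against 119 to 138, and 1 aged mouse 5.04, against 53.8 to 151. Cdkn1c in those groups ran from 0.99 to 1.44 and from 1.25 to 1.55. The part of choroid plexus in the Cdkn1c values was not tested.

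**Figure D4:**
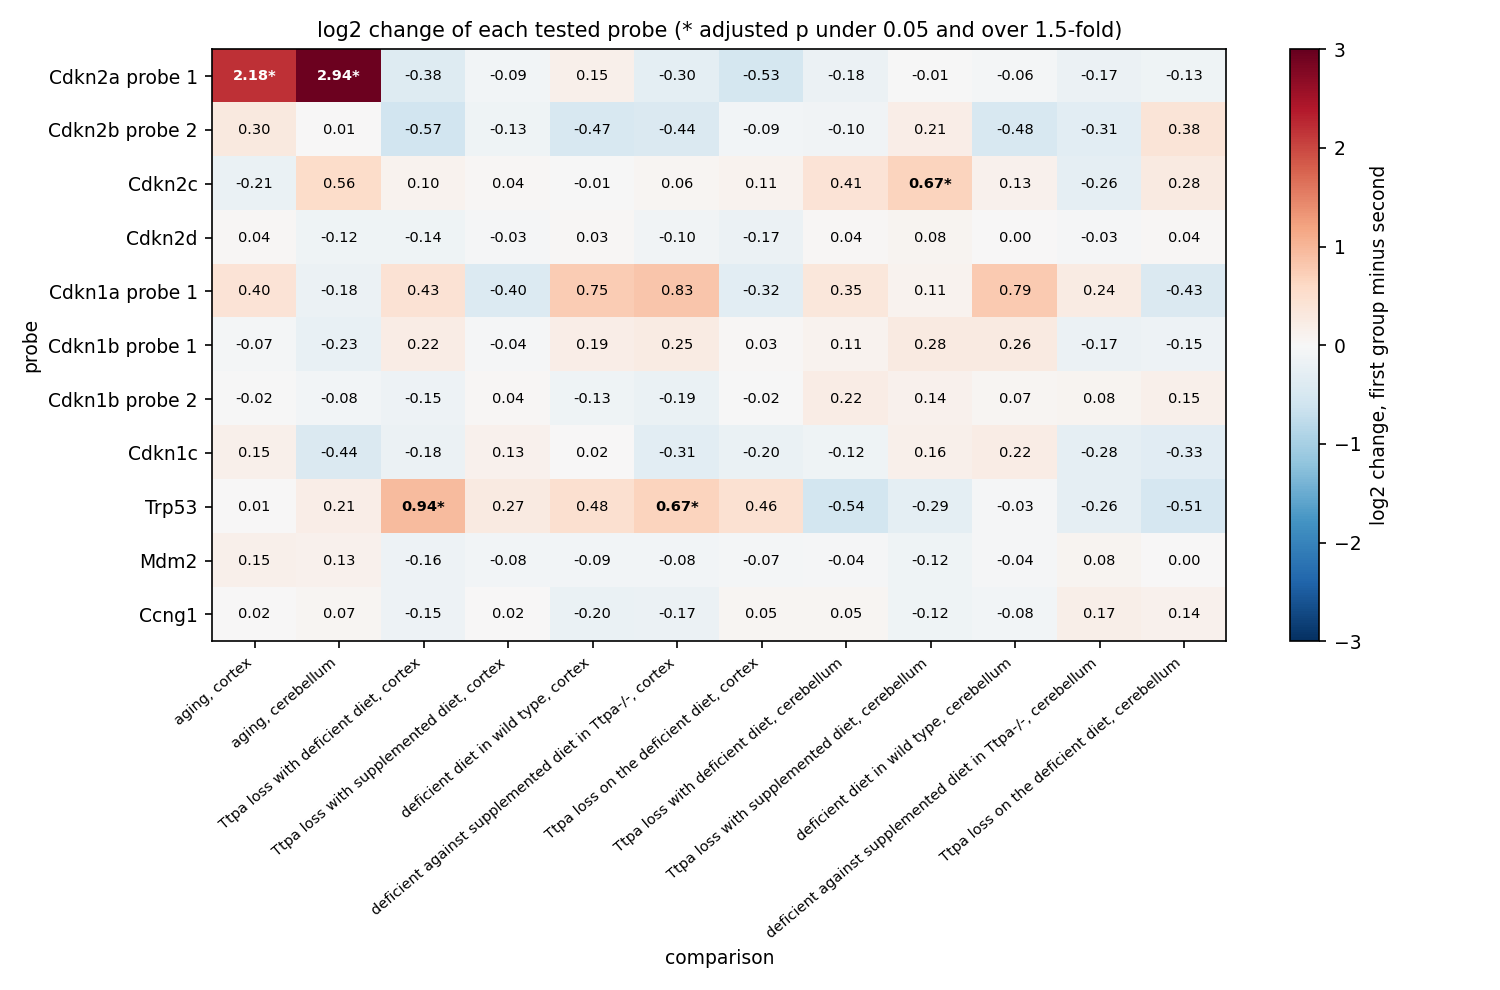
The log2 change of each tested probe in the 12 comparisons within a region, first-named condition minus its control, coloured from -3 to 3 and with the value in each cell. Stars mark the 5 called changes: Cdkn2a with age in cortex (2.18) and cerebellum (2.94), Trp53 in Ttpa-/- deficient cortex against WT (0.94) and against the supplemented diet (0.67), and Cdkn2c in Ttpa-/- supplemented cerebellum (0.67).

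The remaining cerebellum comparisons called 0 of 11 probes: Ttpa loss with the deficient diet, where 4.46% of all probes were called, Ttpa loss on the deficient diet (4.96%), the deficient diet in WT (1.27%) and the deficient against the supplemented diet in Ttpa-/- mice (0.343%). At an unadjusted p under 0.05, limma gave 3, 2, 2 and 1 of these probes and the methods' t-test 2, 2, 0 and 1. Again no share of all probes was taken at that threshold. In the same order, 1, 1, 0 and 1 had groups that did not overlap, beside 17.0%, 13.5%, 16.8% and 5.35% of all probes. By adjusted p alone Trp53 passed in the comparisons of Ttpa loss with and on the deficient diet, 1 of 11 in each, beside 13.2% and 12.8%; the second difference was -0.51, or -0.26 (adjusted p = 0.236) without the Ttpa-/- mouse at -4.11. In the test of a difference in aging between the regions 0 of 11 were called, with 1.46% of all probes called and 2 at an unadjusted p under 0.05 by limma.

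The third question was how the genes differ between the regions in WT mice on the normal diet. Cdkn1b was higher in cerebellum and Cdkn1c in cortex at both ages, while Cdkn2c and Cdkn2b were called in the aged mice alone. In the main fit, the test of a difference in aging between the regions called neither Cdkn2c nor Cdkn2b. Their region differences are thus not shown to depend on age. In all, 4 of 10 probes were called at 2 months, where 38.4% of all probes were, and 5 of 11 at 29 months, where 33.6% were. Groups did not overlap for 7 of 10 and 8 of 11, beside 58.1% and 56.4% of all probes, and by adjusted p alone 6 of 10 and 8 of 11 passed, beside 62.5% and 56.4%. For Cdkn1b both probes were called at both ages. Probe 2 lay at 2.54, 2.37, 2.29 and 2.66 in young cortex and 4.22, 4.35, 4.28 and 4.28 in young cerebellum, a difference of -1.82 (SE 0.08, adjusted p = 1.28e-19, limma), and at 29 months it was -1.76. Probe 1 gave -1.29 and -1.13. Cdkn1c was the reverse, higher in cortex by 0.97 (adjusted p = 7.25e-07) at 2 months and 1.57 (adjusted p = 6.02e-11) at 29 months.

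Cdkn2c was higher in cerebellum by 1.03 at 29 months (adjusted p = 1.12e-06 for a log2 difference of -1.03, cortex minus cerebellum), but at 2 months the difference was -0.26 (adjusted p = 0.155). Cdkn2b probe 2 was higher in cortex by 0.71 at 29 months (adjusted p = 0.00206), with 0.41 (adjusted p = 0.0598) at 2 months, and with the other background correction the first was 0.51 and under the fold line. Ccng1 was higher in cortex at both ages, by 0.59 (adjusted p = 1.93e-07), which was called, and by 0.54 (adjusted p = 1.24e-06), which was under the fold line. The call at 2 months fell under the fold line with quantile scaling (0.55), the other background correction (0.56), array weights (0.58), and without replicate 1 or 4 of either young group, the fits without 1 array giving 0.53 to 0.63. Cdkn2d and Mdm2 differed by 0.38 and -0.32 at 2 months and 0.53 and -0.30 at 29 months, all under 1.5-fold. Trp53 differed by 0.06 and -0.14 and Cdkn1a by -0.59 and -0.02, with no call. Cdkn2a, tested at 29 months only, differed by 0.15.

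**Figure D5:**
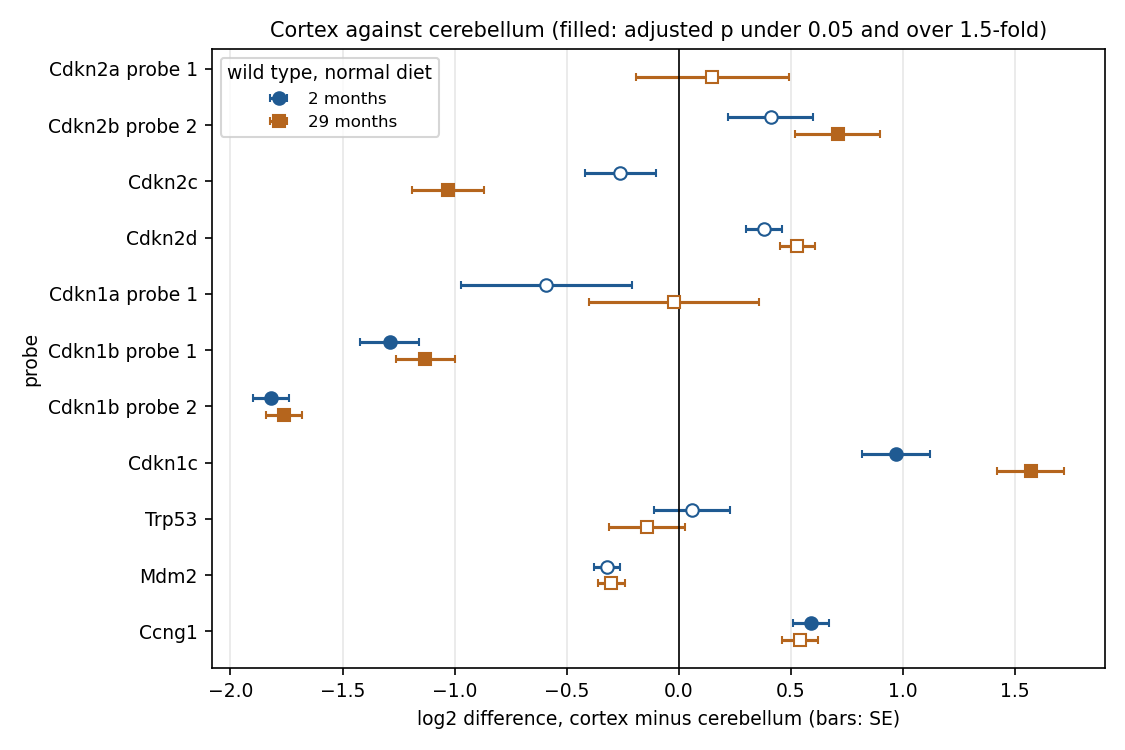
Difference of cortex minus cerebellum in WT mice on the normal diet for each tested probe, as log2 values with SE bars, at 2 months (circles) and 29 months (squares); filled symbols are called. Both Cdkn1b probes lie at -1.82 to -1.13 and Cdkn1c at 0.97 and 1.57, while Cdkn2c is called at 29 months only, at -1.03.

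Genes around these members were examined as lists. Of 20 senescence-associated secretory and marker genes, 11 were tested with age in cortex and 12 in cerebellum. In cortex Ccl8 and Ccl2, chemokines that draw monocytes, rose by 3.78 and 2.07 and Timp1, an inhibitor of matrix proteases, by 1.50; 8 were not called and none fell, beside 2.10% of all probes called, and the list's median was 0.46 beside -0.03 for all probes. In cerebellum 4 of 12 rose, beside 5.03% of all probes, among them Ccl8 (4.27), Ccl2 (2.58) and Timp1 (1.67), and 8 were not called. The list's median was 0.05 beside -0.01. In Ttpa-/- deficient against WT cortex, Hmgb1, a chromatin protein, fell by 0.87 and Igfbp3 rose by 0.61, 2 of 12 beside 4.76% of all probes. In cerebellum Igfbp7 rose by 1.15 in deficient and 0.90 in supplemented Ttpa-/- mice. It was the 1 called of 12 in each, beside 4.46% and 4.91%.

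Regulators of the Ink4/Arf locus were examined next. With age, Cbx7, a Polycomb protein that represses the locus, rose by 0.73 in cortex, the 1 called of 10 tested, beside 2.10% of all probes. In cerebellum Tbx3 (0.88) and Id1 (0.71) rose and Cbx8 and Ets2 fell by 0.75 and 0.74, which made 4 of 11 beside 5.03% of all probes. Cbx7 rose in the cerebellum of Ttpa-/- mice by 1.64 on the deficient and 1.58 on the supplemented diet against WT, and by 1.30 against WT on the deficient diet. In these comparisons 1, 2 and 2 of 11 listed genes were called, beside 4.46%, 4.91% and 4.96% of all probes. Tbx2 rose in Ttpa-/- cortex by 0.75 on the deficient and 1.03 on the supplemented diet. It was the 1 called of 11 in each, beside 4.76% and 0.0920%.

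Among the G1 cyclins, kinases and E2F factors on which the inhibitors act, 17 were tested in aging cerebellum. Ccnd1, cyclin D1, and E2f1 fell by 1.01 and 0.85, which made 2 of 17 beside 5.03% of all probes. In Ttpa-/- deficient against WT cortex Rbl2, a relative of the retinoblastoma protein, rose by 0.72, the 1 called of 17, beside 4.76% of all probes. Of the proliferation genes, Rrm2 of nucleotide synthesis fell by 0.72 with age in cortex (1 of 16, beside 2.10% of all probes). Bub1b and Mcm6 rose by 1.21 and 0.98 in cerebellum (2 of 17, beside 5.03%). In Ttpa-/- deficient against WT cerebellum Birc5 fell by 1.06 and Cdc20 rose by 0.83 (2 of 17, beside 4.46%).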

How the data were processed

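RNA of 40 tissue samples had been hybridised to one-colour Agilent mouse arrays. The authors deposited each array's scanner output, with the processed signal as background-corrected intensity, and log2 values scaled to each array's 75th percentile. Per the file headers, probes are placed on mm9 and the images were read with Agilent Feature Extraction 10.7.3.1, while the submitters' processing notes name another version of it. Each deposited intensity was divided by the 75th percentile of its array and taken to log2. Once each probe's mean over the arrays was subtracted from these levels, the authors' own log2 values differed from them by a median of 0.001 in size.

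Each array has 62976 spots. Control spots and spots flagged as outliers were left out and spots of a probe averaged, which left 55589 of 55681 gene probes, and 0 values were saturated. limma 3.58.1 (R 4.3.3) was fitted to all 40 arrays with 10 group means and no block. Probes entered a comparison, and its adjustment, where either group had them above background in each of its 4 mice. Groups came from the sample labels, 4 mice each. The scripts were tested on simulated data. The number of arrays limits the precision. Figures were drawn with matplotlib 3.10.9.

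The genes and lists were chosen with earlier results of these data known. All probes of a member are reported, each on its own. From each list, at most the 4 called genes with the largest change per comparison are named, and a few list genes are not reported here. The 3 genes most like a member with a call within a region are given by Pearson's r over probes above background on all arrays. The study's methods name no test for the arrays. Their general statistics give Student's t-test for a pair of groups and ANOVA for more. That t-test, here called the methods' t-test, was run as an alternative. Other alternatives were median and quantile scaling, normexp background correction, other filters, array weights, genes in place of probes, fits of the compared groups only, a replicate block and leaving out each array. Symbols were checked by RefSeq accession, which matched for 12 of 15 probes. Of 170 list genes, 170 were on the array. Slide as a block could not be fitted.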

Additional observations from a re-analysis of the deposited data

Results flagged for a closer look

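Of 108 sets of 4 arrays (1 probe in 1 group, above background on all 4), 8 held 1 array far from the other 3 by Dixon's test, and chance alone gives about 1 in 20. In aged WT cerebellum, Cdkn2a probe 1 was at -3.07 in replicate 4 and at -3.59 to -3.57 in the others. Cdkn2d was at 4.11 in replicate 4 of Ttpa-/- deficient cortex, against 3.90 to 3.93. Cdkn1b probe 1 was at -2.35 in replicate 1 of WT deficient cortex, against -2.01 to -1.95. In Ttpa-/- supplemented cerebellum, Cdkn1b probe 2 was at 4.23 in replicate 4, against 4.37 to 4.38. Cdkn1c stood apart in replicate 1 of WT deficient cortex (1.69, against 1.31 to 1.34) and in replicate 1 of Ttpa-/- deficient cortex (0.80, against 1.33 to 1.39). Mdm2 did so in replicate 2 of aged WT cortex (3.49, against 3.37 to 3.39) and in replicate 4 of WT deficient cortex (3.18, against 3.36 to 3.38).

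The change from aged WT to Ttpa-/- deficient mice differed between cortex and cerebellum for Trp53, by 1.48 (adjusted p = 0.000793, limma), and for Cdkn1b probe 2, by -0.37 (adjusted p = 0.0359).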

How the results depend on the processing

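No called value changed direction under any alternative run. The counts of all probes called moved with the setting too. For aging in cortex 588 were called in the main fit and 280 with normexp correction. For the diets in Ttpa-/- cortex 962 were called, and 0 with only the compared groups fitted. For the deficient diet in WT cortex 63 were called, and 882 with array weights. Nothing particular to the members is therefore read from counts that moved. Counts of member probes called moved as follows. With normexp correction they went from 1 to 0 for aging in cortex, for Ttpa loss with the deficient diet in cortex, for the deficient against the supplemented diet in Ttpa-/- cortex and for Ttpa loss with the supplemented diet in cerebellum, and from 0 to 1 for the difference in aging between the regions. With only the compared groups fitted they were 0 for aging in cortex, the diets in Ttpa-/- cortex and Ttpa loss with the supplemented diet in cerebellum. With array weights they were 1 in place of 0 for the deficient diet in WT cortex (Cdkn1a probe 1, 0.89), Ttpa loss on the deficient diet in cortex (Cdkn2a probe 1, -0.72), Ttpa loss with the deficient diet in cerebellum (Trp53, -0.60) and the aging difference (Cdkn2c, -0.72), 2 in place of 1 for the diets in Ttpa-/- cortex, and 0 in place of 1 for Ttpa loss with the supplemented diet in cerebellum, as also with median scaling, 0. Genes in place of probes gave 1 for the aging difference. By the methods' t-test, adjusted, the counts were 0 for aging in cortex and for Ttpa loss with the supplemented diet in cerebellum, and unadjusted 2 for the diets in Ttpa-/- cortex. By adjusted p alone they were 3 for aging in cerebellum, 2 and 1 for Ttpa loss with the deficient diet in cortex and cerebellum, 1 for Ttpa loss on the deficient diet in cerebellum, 8 for the regions at 29 months, where the other settings gave 4 to 7 (3 to 6 at 2 months), and 2 for the difference of Ttpa loss between the regions.

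Leaving out 1 array at a time, the counts ran from 1 to 2 for aging in cerebellum (Cdkn2c joined without young replicate 1 or 3 or aged replicate 2 or 3), 3 to 4 for the regions at 2 months (Ccng1) and 0 to 1 for the aging difference (Cdkn2c without young cortex replicate 3 or aged cortex replicate 2). They ran from 0 to 1 for Ttpa loss with the deficient diet in cerebellum (Trp53, -0.70 to -0.62, without WT replicate 4 or Ttpa-/- replicate 1 or 2), with the supplemented diet (Cdkn2c) and on the deficient diet (Trp53 or Cdkn2b), and from 0 to 2 for the deficient diet in WT cerebellum (without its replicate 4, Cdkn1a 1.23 and Cdkn2b probe 2 -0.69). The other counts stayed at their values, 1 for aging in cortex among them. A replicate block left the count of calls as it was in each comparison, 1 for aging in cortex and 1 for aging in cerebellum. In 0 of 14 comparisons did all 4 same-numbered pairs correlate above 0.1 (-0.45 to 0.66), so the numbers are not shown to pair the samples of a comparison. Across the regions, all 4 same-numbered pairs did in 1 of 5 conditions, Ttpa-/- deficient mice (0.18 to 0.63). Median scaling moved the median of all probes by over 0.1 in 3 comparisons, from -0.019 to 0.09 for the diets in Ttpa-/- cortex, from -0.01 to -0.188 for the deficient diet in WT cerebellum and from -0.011 to 0.167 for Ttpa loss on that diet in cerebellum. The slide as a block was not run, since each group lies within 1 slide. Probes near background have only bounds, as Cdkn2a in the young groups.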

Other observations

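Cdkn1a had no call and was examined for like genes after its values were seen. Over the 40 arrays with region means subtracted, among 17135 genes, those most like its probe 1 were Sh2b2, an adaptor protein of receptor kinases (r = 0.820), Wdr92 (r = 0.796) and LOC100503910 (r = 0.785).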
